A study of Homo sapiens with 15 samples.

Results

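Late gene bodies were examined for accessible regions that are neither promoters nor exons in RPTEC, an hTERT-immortalized human renal proximal tubule epithelial line. Peaks of chromosomes 1 to 22 from all 15 deposited lists were merged where they shared at least 1 bp, and a merged region was kept if at least 2 libraries had a peak in it. Of 285511 such consensus regions, 43042 (15.1%) had their midpoint past the middle of a GENCODE v44 protein-coding gene of 20 to 500 kb, more than 1 kb from any annotated transcription start and outside every exon. These are called late regions. The 48891 regions that met the same conditions between the start and the middle of such a gene, and in the late part of none, are called early regions and served as the contrast. Of the late regions, 1760 lay also in the early part of another, overlapping gene.

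ATAC-seq (the assay for transposase-accessible chromatin, in which Tn5 transposase cuts open DNA) was performed on 3 libraries of each of 5 lines. WT is the parental line. KO1 and KO2 are CRISPR clones, each grown from a single cell, with frameshifts in exon 3 of SETD2, and they were pooled as KO (6 libraries). Rescue1 and Rescue2 are clones from single colonies of knockout cells that carry a lentiviral full-length FLAG-tagged SETD2 under blasticidin selection, derived by their clone names from KO2, and they were pooled as rescue (6 libraries). All lines share the hTERT transgene, kept under geneticin selection. Nothing in the sources says that the libraries of a line came from separate cultures, so p-values measure only the spread between these libraries, and each line is 1 clone.

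SETD2 places the third methyl group on lysine 36 of histone H3. It travels with elongating RNA polymerase II, so that H3K36me3 builds up along transcribed genes and is densest toward their ends, where it recruits histone deacetylase and DNA methyltransferase complexes and is known to keep cryptic transcription starts silent. Distal accessible regions inside genes are mostly enhancer-like elements, where transcription factors displace a nucleosome.

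The 200 bases around the midpoint are shown for some of the late regions that stood highest in their libraries' own ranking by fold enrichment, among those that separated every KO from every WT library. All are hg38, plus strand, from 5′ to 3′. Capitals mark any match to the 18 transcription factor motifs searched on both strands, which are listed further on, with frequencies for some of them. The first was called in every KO and every rescue library and never in WT.
SNRK/ANO10 chr3:43406228-43406427: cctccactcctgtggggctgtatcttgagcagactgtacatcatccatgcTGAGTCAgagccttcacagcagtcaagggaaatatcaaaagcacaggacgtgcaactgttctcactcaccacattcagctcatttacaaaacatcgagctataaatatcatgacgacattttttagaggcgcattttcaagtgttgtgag
This window, shared by the convergent genes SNRK and ANO10, lay 86.7% along SNRK and 84.7% along ANO10 and holds an AP-1 match at position 51. The other 3 were called in each WT library and were missing from both knockout clones.
KIF16B chr20:16417146-16417345: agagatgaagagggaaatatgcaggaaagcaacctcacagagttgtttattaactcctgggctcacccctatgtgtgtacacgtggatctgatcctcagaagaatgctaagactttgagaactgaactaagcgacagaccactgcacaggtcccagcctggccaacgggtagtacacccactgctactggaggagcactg
ENSG00000284776/DTD1 chr20:18743863-18744062: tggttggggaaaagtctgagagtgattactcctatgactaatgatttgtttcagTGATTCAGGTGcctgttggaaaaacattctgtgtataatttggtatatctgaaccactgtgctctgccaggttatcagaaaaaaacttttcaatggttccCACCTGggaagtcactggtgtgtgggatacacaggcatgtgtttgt
JAM3 chr11:134145447-134145646: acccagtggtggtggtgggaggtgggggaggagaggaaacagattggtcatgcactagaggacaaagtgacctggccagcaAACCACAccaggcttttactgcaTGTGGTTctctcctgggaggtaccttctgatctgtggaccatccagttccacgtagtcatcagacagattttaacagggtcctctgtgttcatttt
The KIF16B window, 51.8% along the gene, holds no match and had a peak in 1 rescue library. The window in DTD1, and in the unnamed overlapping gene ENSG00000284776, and the window in JAM3, which encodes a junctional adhesion molecule, were held again by all 6 rescue libraries. They lay 87.3% along DTD1 and 92.2% along JAM3. The DTD1 window holds an AP-1 match that runs into a ZEB-type E-box, with another E-box at position 155, and the JAM3 window holds 2 RUNX matches.

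The peak lists held 191071 (WT replicate 2) to 256644 (Rescue2 replicate 1) peaks on chromosomes 1 to 22. The lists hold no counts, and the sequencing depth that the study summarizes in its supplement was not used here. The mean number of peaks was 196565 in WT, 214850 in KO and 219530 in rescue, with overlapping ranges. A library is said to hold a region if it has a peak there, and a region not held is one below the calling threshold, not a closed one. In bulk cells, fewer cells with an open site and less opening per cell cannot be told apart. A peak near the start of PAX8, CDH6, KRT8 and KRT18, genes of tubule epithelium, was present in all 15 libraries, and near LRP2 in 2 of 3 WT, 6 of 6 KO and 6 of 6 rescue libraries. PAX2 had one in 0 of 3 WT, 4 of 6 KO and 1 of 6 rescue libraries, and CUBN, a proximal tubule endocytic receptor, in none. Among markers of other cell types, PTPRC, CD3E, PECAM1, UMOD and AQP2 had none, CDH5 and NPHS1 had one in every library, LUM in 3 of 3 WT, 6 of 6 KO and 3 of 6 rescue libraries, and the fibroblast gene DCN in 0 of 3 WT, 6 of 6 KO and 1 of 6 rescue libraries. The part of DCN and LUM in the results below was not tested, and the edit in SETD2 cannot be read from peaks.

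Late regions were like early ones in most respects that do not involve genotype. Their median width was 238 bp against 234 bp, 34% of the late regions were held by all 15 libraries against 33.8% of the early ones, and median GC content of the 200-base windows was 47% in both. They were less dense, with 113.5 per Mb of eligible sequence against 122.9 per Mb early. Their median rank by fold enrichment inside a library was somewhat higher, with percentiles of 53.4 to 56.3 over the 15 libraries against 49.7 to 53.1 for early regions. A late region was found in 8351 of the 10898 genes of this length, and PALLD, which encodes the actin-associated protein palladin, had the most, with 60.

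The main measure was the late share, the percent of the distal intragenic regions held by a library that lay in the late gene body. It was 45.94%, 46.16% and 46.12% in the 3 WT libraries. In KO1 it was 47.08%, 47.19% and 47.14%, and in KO2 47.18%, 47.08% and 47.13%. All KO libraries were above all WT libraries, and the clones overlapped each other. It was 46.62%, 46.67% and 46.66% in Rescue1 and 46.82%, 46.90% and 46.88% in Rescue2, so that every rescue library lay between the WT and the KO ranges. The KO mean exceeded the WT mean by 1.06 percentage points (47.13% ± 0.0459, SD, n = 6, against 46.07% ± 0.118, n = 3; exact permutation test over libraries, two-sided, p = 0.0238, the smallest that 84 splits allow). The rescue mean (46.76% ± 0.121, n = 6) was 0.376 points below KO (exact permutation p = 0.00216, the smallest that 924 splits allow). Rescue stayed 0.686 points above WT, with no overlap. With the same number of peaks (150000) taken from each list, the differences were 0.968 points for KO minus WT and -0.391 points for rescue minus KO. The comparisons of KO with WT and of rescue with KO share the KO libraries.

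**Figure D1:**
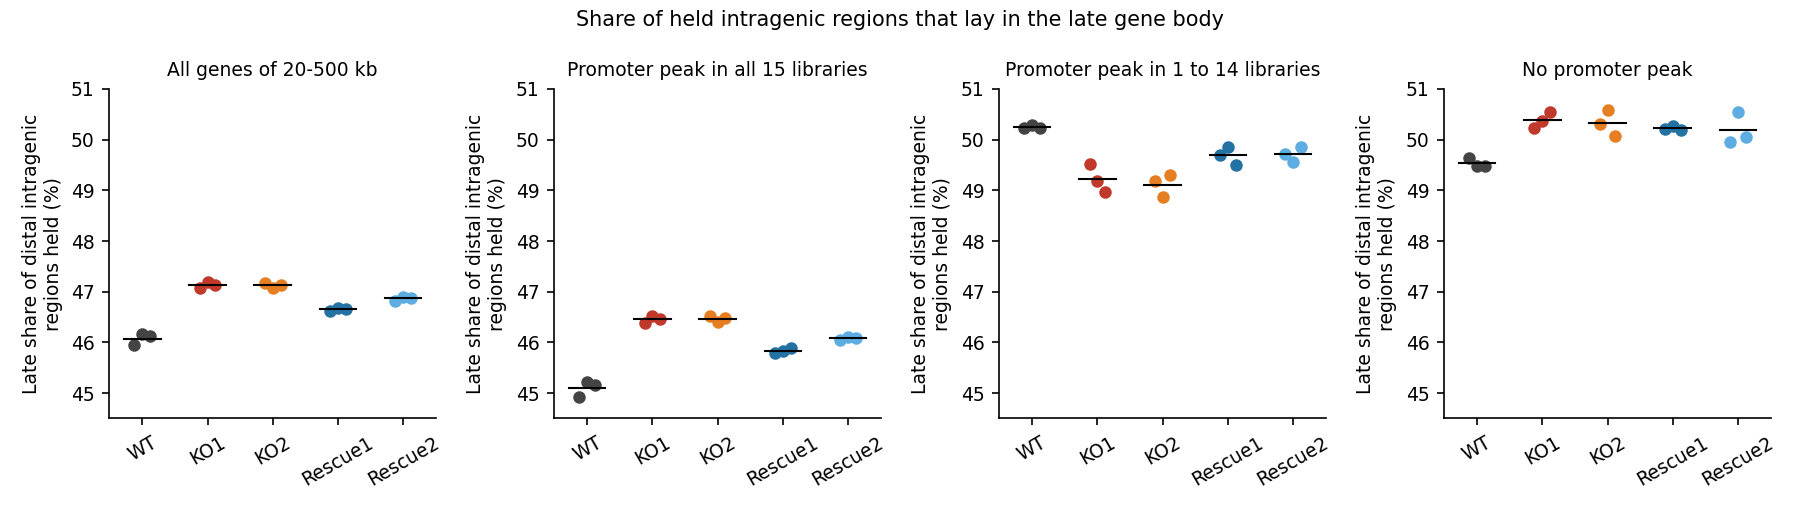
The late share in percent is plotted for each library (points) with the mean of each line (horizontal strokes), over all genes of 20 to 500 kb and over genes split by how many of the 15 libraries had a peak within 1 kb of the gene start; the vertical axes do not start at 0. Over all genes and over genes with an accessible promoter, KO lay above WT with rescue between them, while genes with a promoter peak in 1 to 14 libraries had KO below WT.

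As a share of all consensus regions held, the early regions moved and the late ones did not separate KO from WT. Late regions made up 14.7% of all consensus regions held in WT and 14.8% in KO, with overlapping libraries, whereas early regions fell from 17.2% in WT to 16.6% in KO without overlap and were at 17.2% in rescue. Late regions were at 15.1% in rescue, above every WT library. In number, both kinds rose from WT to KO, with overlapping libraries. The mean count held went from 25342 to 27824 for late and from 29667 to 31209 for early regions. By bases under peaks in place of regions, the late share was 46.37% ± 0.076 in WT, 47.39% ± 0.0551 in KO and 47.09% ± 0.115 in rescue, again without overlap between any 2 of them.

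A peak within 1 kb of the gene start in all 15 libraries was used to stand in for genes that are active in every line, and 8010 genes had one. In these, the late share was 45.11% ± 0.152 in WT (n = 3), 46.47% ± 0.0594 in KO (n = 6) and 45.96% ± 0.136 in rescue (n = 6). KO was 1.36 points above WT (exact permutation p = 0.0238) and rescue 0.508 points below KO (exact permutation p = 0.00216), both the smallest values possible. In the 1740 genes with no promoter peak in any library, KO (50.35% ± 0.191) was above WT (49.53% ± 0.0901) by 0.817 points without overlap, and rescue (50.21% ± 0.199) overlapped KO. The 1148 genes with a promoter peak in some libraries went the other way, with KO at 49.17% ± 0.237 and WT at 50.25% ± 0.0273, again without overlap. Differences between these gene classes were not tested.

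Gene length went with the size of the shift. KO exceeded WT by 1.68 points in genes of 20 to 50 kb, by 1.58 points at 50 to 100 kb, by 1.11 points at 100 to 200 kb and by 0.548 points at 200 to 500 kb, with no overlap in any class. In the shortest class KO was 46.20% ± 0.113 and rescue 45.41% ± 0.244, without overlap, while in the longest class rescue (48.48% ± 0.189) and KO (48.31% ± 0.185) overlapped. By chromosome, the KO mean was above the WT mean on 21 of 22, without overlap on 14, and below it, with overlap, on chromosome 22. Chromosomes 13 (43.62% in WT, 46.48% in KO, 44.88% in rescue) and 21 (47.07%, 49.74% and 48.13%) moved most. The rescue mean was below KO on 19 of 22 chromosomes, without overlap on 3, and above it without overlap on chromosome 8.

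Gene bodies were also cut into 10 equal bins from start to end, and each library's held region and gene pairs were spread over them. The KO share was below WT in bins 1 to 5 and above it in bins 6 to 10, and only in bin 6 did the libraries overlap. The KO minus WT difference was most negative in bin 2, with 11.62% ± 0.0627 in WT and 11.26% ± 0.0409 in KO, and most positive in bin 9, with 8.84% ± 0.0462 in WT and 9.26% ± 0.0348 in KO. In bin 10 the difference was 0.322 points. In rescue the share moved back from KO without overlap in bins 2, 7 and 8, but bin 9 (9.22% ± 0.0266) and bin 10 (6.96% ± 0.0296) overlapped KO.

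**Figure D2:**
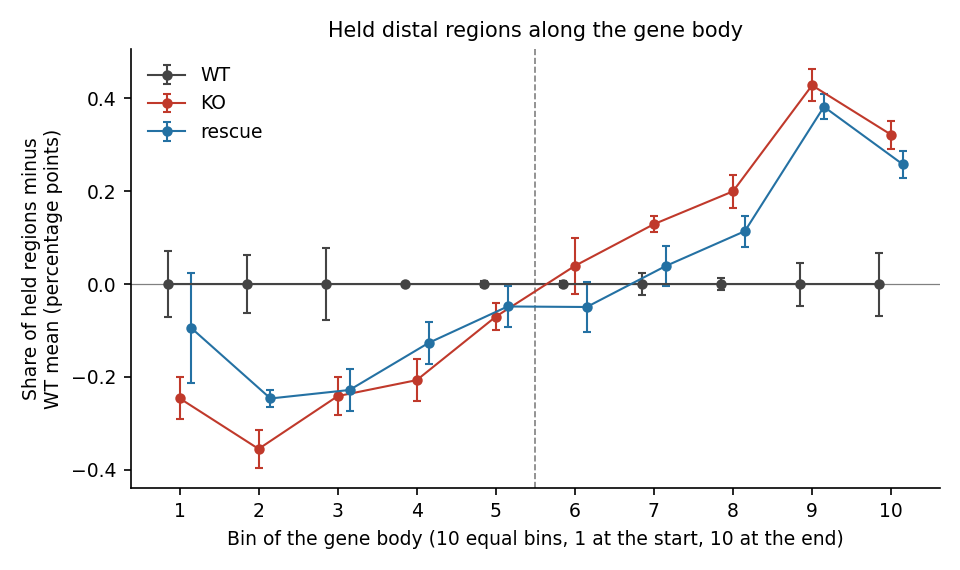
For 10 equal bins of the gene body, points give the mean share of held distal region and gene pairs in WT (3 libraries), KO (6) and rescue (6) minus the WT mean, in percentage points, and bars give the SD over libraries. KO minus WT was -0.355 points in bin 2 and 0.428 points in bin 9, and the rescue line lay close to KO in the last bins.

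Single regions were called gained in KO if all 6 KO and no WT library held them, and lost in the reverse case. This was met by 1892 late regions gained (4.4%) and 1078 lost (2.5%), where 4.77% and 2.49% of all consensus regions were gained and lost. The gained share was near the background and slightly under it, and the lost share was at it. Of early regions, 4% were gained and 2.89% lost. In genes with an accessible promoter, 4.29% of late and 3.6% of early regions were gained, and 2.53% and 2.94% lost. In genes with no promoter peak, 4.71% of late and 4.44% of early regions were gained, and 2.56% and 3.2% lost. Between rescue and KO, 453 late regions were gained (1.05%, against 0.906% of all regions) and 400 lost (0.929%, against 1.23% of all). By Fisher's exact test with Benjamini-Hochberg adjustment over all regions, no region passed in either comparison (smallest adjusted p = 0.164 and 0.101). Without adjustment, at p under 0.05, 2792 late regions (6.49%) were higher and 1669 (3.88%) lower in KO, against 6.93% and 3.86% of all regions. In rescue against KO, 1235 (2.87%) were higher and 1003 (2.33%) lower, where 2.49% of all regions were higher and 2.78% lower.

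**Figure D3:**
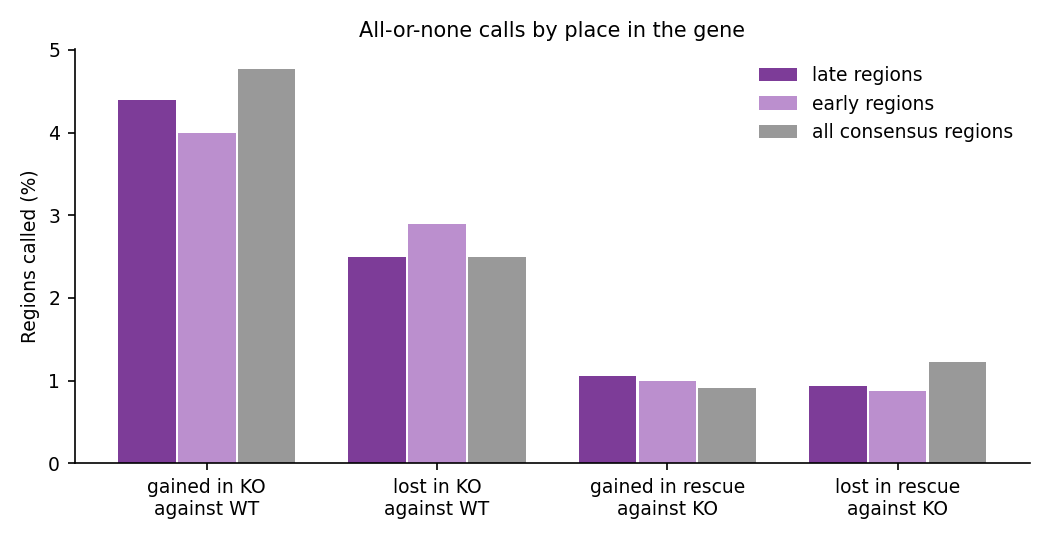
Bars give the percent of late regions, early regions and all consensus regions of chromosomes 1 to 22 that were held by every library of the first group and none of the second. Late regions stood above early regions among those gained in KO (4.4% against 4%) and below them among those lost (2.5% against 2.89%), and near them in rescue against KO.

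Rescue libraries, which the KO call did not use, held on average 70.1% ± 5.37 (n = 6, 65% to 79.6%) of the late regions gained in KO, against 69.4% ± 5.56 of the early and 65% ± 5.85 of all gained regions. Of all late regions, whether called or not, these libraries held 67.3% ± 5.58. They held 34.7% ± 7.57 (27.6% to 47.1%) of the late regions lost in KO, against 33.7% ± 7.32 early. Calls made on KO1 alone took in 2732 late regions gained (6.35%, against 7.03% of all regions) and 2065 lost (4.8%, against 4.8% of all). KO2 libraries held 81.3% ± 4.85 and 30.1% ± 6.68 of them (n = 3 each), near the 79.3% and 30.6% over all regions called that way. Of all late regions, called or not, KO2 libraries held 68.0% ± 5.31. Along the gene, the share gained in KO went from 3.82% in bin 1 to 4.84% in bin 10, and the share lost from 2.99% to 2.32%. A full reversal was seen for 235 late regions that every KO library and neither other group held, and for 160 with the opposite course. These were 0.546% and 0.372% of late regions, against 0.812% and 0.312% of all regions.

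Late regions gained in KO were spread over 1441 genes, 1106 of which had a single one, and 108 genes with 3 or more held 20.9% of them. FMN2, which encodes an actin-nucleating formin, led with 10 of its 17 late regions, followed by ENSG00000275163 and VAT1L with 9 of 18 each. Lost regions were led by KIF16B, the kinesin of early endosomes, with 7 of 14, and by ADGRD1, an adhesion G protein-coupled receptor, with 6 of 7. EIPR1 and ATP9B each lost 5 in KO and gained 6 in rescue.

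Position on the chromosome went with the calls as well. Of the 3180 late regions within 5 Mb of a chromosome end, 3.96% were lost in KO, and 3.11% were gained in rescue. Of the 29210 that lay more than 20 Mb from either end, the KO lines lost 2.31% and the rescue lines gained 0.716%. The same held over all consensus regions, with 3.54% and 2.08% near the ends and 2.33% and 0.679% far from them. The part of this position in the results was not tested. Chromosome 19 had the highest percent of late regions gained in rescue, 3.89%, followed by chromosome 20 with 3.11%, where 1.05% of all late regions were gained. Early regions and all consensus regions of these chromosomes were not compared, so the values do not single out late regions.

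To ask which genes moved, the bases of late regions under peaks were summed per gene and library, and 4885 genes with 3 or more late regions were fitted with limma on log2(bases + 100) with Benjamini-Hochberg adjustment. Between KO and WT, 1448 genes (29.6% of those fitted) were higher and 563 (11.5%) lower at adjusted p under 0.05. With bases scaled to the total under peaks of each library the split was 1308 higher and 1070 lower, and the median log2 change over all genes went from 0.115 to 0.013. Without WT replicate 1, 375 genes were lower. Between rescue and KO, 1234 genes (25.3%) were higher and 553 (11.3%) lower, and 1213 and 881 with scaled bases. Against KO2 alone, the clone from which the rescue lines derive by name, 600 were higher and 385 lower. Fold changes below are on the log2(bases + 100) scale, which understates changes of genes with few bases, and neither a fold nor a p is given where a whole group was at 0, since the regions of such a gene entered the consensus only through the other groups. Genes near 0 in a group share this limit in part.

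FMN2 had 0 bases in all 3 WT libraries and 3264 to 3854 in KO (median 3812, n = 6), and rescue libraries stayed there, at 2991 to 4140. Its early regions were under peaks in WT too, with 3192 to 3436 bases. ENSG00000275163 was likewise at 0 in WT, at 2426 to 2780 in KO and at 1843 to 3030 in rescue. VAT1L had 0, 121 and 133 bases in WT, 2762 to 3477 in KO and 1510 to 2305 in rescue, a log2 change of 4.19 ± 0.19 (SE) between KO and WT (adjusted p = 2.53e-12). These genes kept high values in rescue, VAT1L at a lower range that did not overlap KO. PCTP (phosphatidylcholine transfer protein), GRIN2A (an NMDA receptor subunit) and EYA1 (a transcriptional coactivator of kidney development) were also at 0 in WT. PCTP had 1195 to 1784 bases in KO and 554 to 1404 in rescue, and EYA1 had 1288 to 1653 in KO and 184 to 561 in rescue. GRIN2A had 761 to 2050 in KO and 639 to 1790 in rescue.

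In the other direction, EIPR1, a partner of the endosomal EARP complex, had 1429 to 2004 bases in WT, 0 in all 6 KO libraries and 2020 to 2992 in rescue. KIF16B had 2118 to 2672 bases in WT, 0 to 114 in KO and 1626 to 2969 in rescue, log2 changes of -4.33 ± 0.19 and 4.18 ± 0.15 (adjusted p = 1.24e-12 and 8.55e-14). ATP9B, a phospholipid transporter of the P4-ATPase family, followed the same course, with 1462 to 1677, 0 to 98 and 1453 to 2015 bases. In these 3 genes the rescue range reached or passed that of WT. ADGRD1, with 1681 to 2037 bases in WT, was at 0 in every KO and every rescue library. ERICH1 (812 to 1591 bases in WT, 0 to 165 in KO, 1544 to 2312 in rescue) and FBRSL1 (726 to 1115, 0 to 94 and 349 to 715) completed the list of largest losses. Of this list, EIPR1, ATP9B, ADGRD1, ERICH1 and FBRSL1 lay within 5 Mb of a chromosome end, and KIF16B did not. Only 3180 of the 43042 late regions lay that near an end. The part of this position in the losses was not tested.

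NPHP4, a ciliary protein mutated in the kidney disease nephronophthisis, had 711 to 811 bases in WT, 0 in KO and 1033 to 1828 in rescue, above WT. ENSG00000284776 had 1305 to 1442 bases in WT, 0 to 325 in KO and 2018 to 2746 in rescue. Among genes that fell in rescue, TMEM132C had 93 to 231 bases in WT, 1553 to 3133 in KO and 0 to 186 in rescue (log2 change of -3.40 ± 0.21 for rescue against KO, adjusted p = 3.02e-10). FSHR, the follicle-stimulating hormone receptor, had 254 to 353 in WT, 1115 to 1620 in KO and 0 to 137 in rescue. These 2 genes returned to or below the WT range. NELL2 and PLD5 also ended below or at WT, with 78 to 195 and 0 to 366 bases in rescue after 1061 to 1611 and 1397 to 2134 in KO, and TMEM74 (0 to 203 after 732 to 1164) and NOL4 (0 after 285 to 759) had been at 0 in WT.

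**Figure D4:**
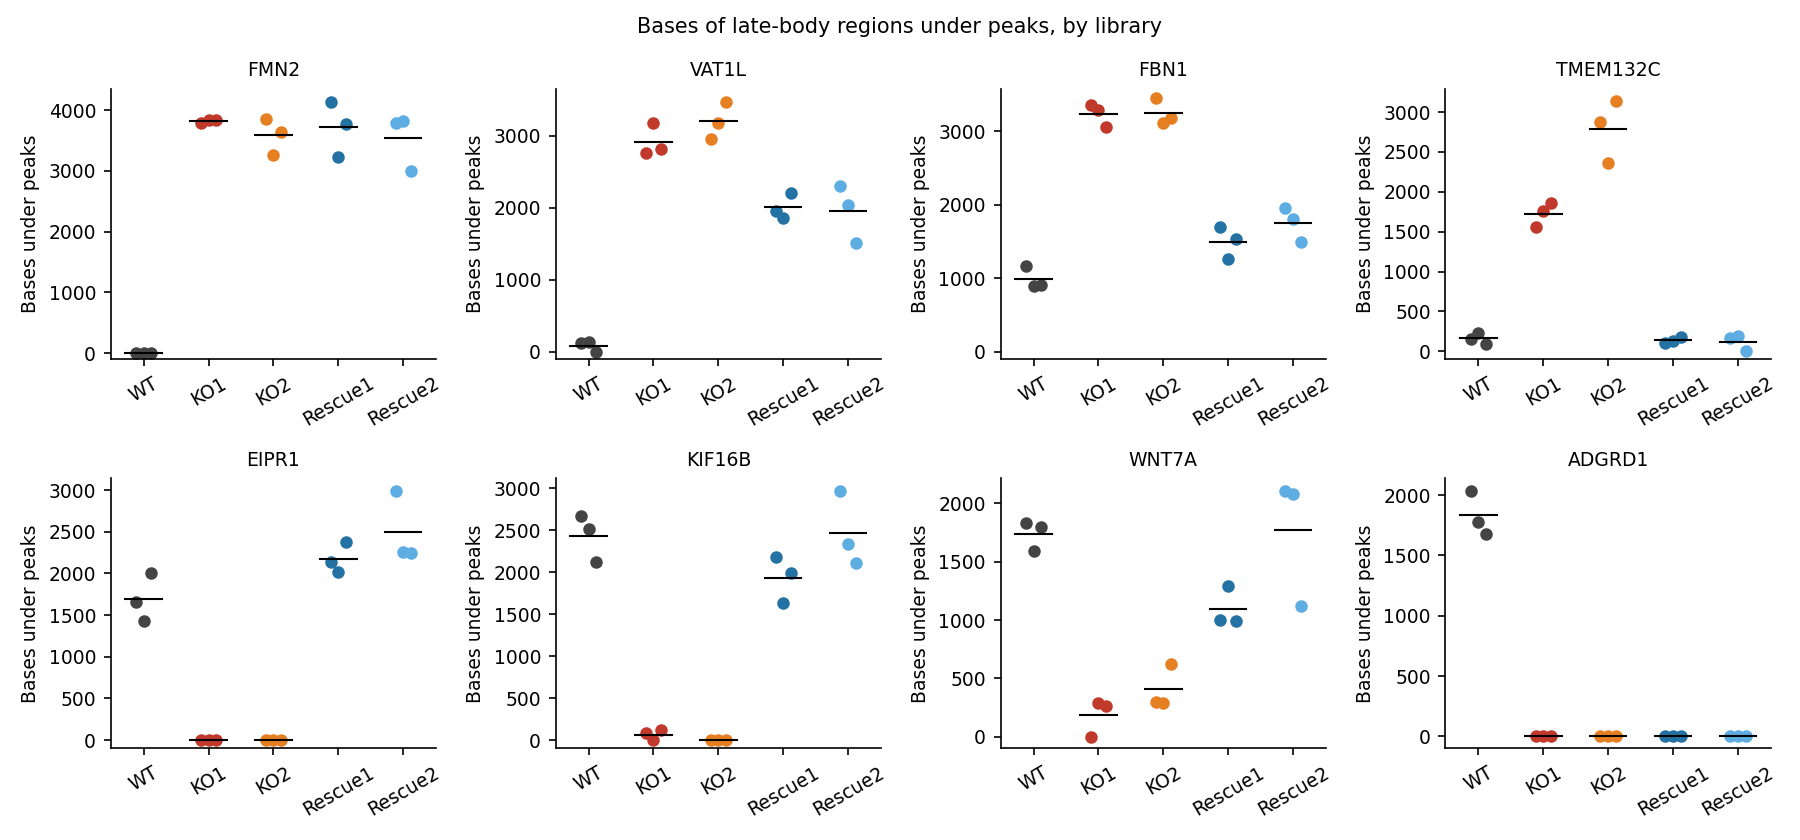
Bases of late regions under peaks are plotted for each library (points) with the mean of each line (horizontal strokes) for 8 genes. FMN2 and VAT1L stayed high in rescue, FBN1 and TMEM132C fell back, EIPR1, KIF16B and WNT7A were lower in KO than in WT and rescue, and ADGRD1 was at 0 in every KO and rescue library.

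Whether the late body moved apart from the early body was asked gene by gene with the log2 ratio of late to early bases, each plus 100, in 3839 genes with 3 or more regions on each side. Between KO and WT the ratio was higher in 961 genes (25%) and lower in 707 (18.4%), with a median log2 change of 0.062. Between rescue and KO it was higher in 605 (15.8%) and lower in 650 (16.9%), with a median of -0.018. In genes with an accessible promoter, 745 of 2924 were higher and 505 lower in KO, whereas in genes with a promoter peak in some libraries 92 of 437 were higher and 122 lower.

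FMN2 and ENSG00000275163 led the genes with a higher ratio in KO. GRIA1, an AMPA receptor subunit, had 0 to 122 late bases in WT and 1064 to 1623 in KO, while its early bases were 1884 to 2488 in WT and 2434 to 2830 in KO (log2 ratio change of 2.82 ± 0.22, adjusted p = 8.12e-07). INTS4, a subunit of the Integrator complex, had 0 late bases in WT and 496 to 995 in KO, with 0 to 82 early bases in WT and 0 to 110 in KO. Some of the largest falls in ratio came with a rise of early bases. ADAMTS17, a secreted metalloprotease, and ENSG00000290149 had 0 early bases in WT and 2038 to 2953 and 1259 to 1757 in KO, with late bases above WT in both. KIF16B (-3.75 ± 0.22) lost nearly all late bases, while its early bases went from 1482 to 1625 in WT to 841 to 1242 in KO. CACNB2, a calcium channel subunit, had fewer late bases in KO (0 to 308 against 458 to 755 in WT) and more early ones (1626 to 2242 against 385 to 503).

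Between rescue and KO, KIF16B (3.20 ± 0.18) and ERICH1 (3.29 ± 0.27) had the largest higher ratios through their late bases, and WDR72 and VWC2 through their early ones. VWC2 had 1119 to 1569 early bases in KO and 87 to 370 in rescue, with late bases of 221 to 413 and 328 to 522. A1CF, a cofactor of apolipoprotein B RNA editing, fell through its late bases, from 303 to 791 in KO to 0 in rescue. KCNAB2 and TRPM4 also had lower ratios, of -2.58 ± 0.13 and -1.98 ± 0.27 on the log2 scale, with more early bases in rescue. TMEM74, whose late bases were at 0 in WT, had a lower ratio too. Of the gene lists described next, the ratio rose in 10 and fell in 2 of 27 mesenchymal genes in KO, and rose in 6 and fell in 1 of 17 epithelial genes. These were 44.4% and 41.2% called, near the 43.4% over all genes. It fell in 3 of 8 proximal tubule genes and rose in none. It rose in 3 and fell in 4 of 20 WNT pathway genes, and rose in 1 and fell in 2 of 11 genes of H3K36 methylation, so 37.5%, 35% and 27.3% of these lists were called.

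Of 42 mesenchymal and EMT genes, 28 were fitted, and 15 were higher in KO and 1 lower, with a median log2 change of 0.35 against 0.12 over all genes and 57.1% called against 41.2%. CDH11, a mesenchymal cadherin, had 0 bases in WT, 479 to 1286 in KO and 683 to 1213 in rescue. FBN1, which encodes the microfibril protein fibrillin, had 899, 912 and 1169 bases in WT, 3056 to 3450 in KO and 1261 to 1958 in rescue (log2 change of 1.62 ± 0.11 in KO against WT, adjusted p = 3.38e-10, and -0.97 ± 0.09 in rescue against KO, adjusted p = 4.94e-08). PDGFRA, a growth factor receptor of mesenchymal cells, had 173, 202 and 208 in WT, 502 to 1144 in KO and 182 to 387 in rescue. COL5A1 was at 0 in WT and in KO1, at 329 to 763 in KO2 and at 767 to 1084 in rescue, so its higher call in KO rested on KO2. In rescue against KO, 3 of the 28 were higher and 6 lower (32.1% called against 36.6% of all genes, median -0.11 against 0.09). PRRX1, a mesenchymal homeobox factor, was among the lower, with 495 to 756 bases in KO and 235 to 351 in rescue. With scaled bases the counts were 13 higher and 2 lower in KO, and 3 higher and 9 lower in rescue, and leaving out WT replicate 2 or 3 left 11 higher in KO. With equal list lengths 2 were higher and 2 lower in rescue.

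Of 34 epithelial junction and polarity genes, 18 were fitted, with 4 higher and 3 lower in KO (38.9% called against 41.2% of all genes fitted, median 0.03 against 0.12), a share near the background. OCLN, the tight junction protein occludin, had 628, 681 and 801 bases in WT, 0 to 450 in KO and 193 to 528 in rescue (-2.16 ± 0.37 in KO against WT, adjusted p = 0.000114). MPP7 and PKP4 were higher, MPP7 with 1101 to 1574 bases in WT, 3508 to 4325 in KO and 3509 to 5213 in rescue. LLGL2, a polarity protein, overlapped between KO (130 to 480) and WT (404 to 527), and its lower call (-0.44 ± 0.17, adjusted p = 0.0389) was lost when any 1 of the WT libraries was left out, and with KO2 alone. In rescue against KO, 5 were higher and 0 lower (27.8% called against 36.6% of all genes, median 0.10 against 0.09). Among the higher was AFDN (afadin), with 1643 to 1733 bases in WT, 882 to 1605 in KO and 1674 to 1905 in rescue. GRHL1, an epithelial transcription factor, had 252 to 1091 bases in KO and 882 to 1380 in rescue. Against KO2 alone, none of the 18 passed, and with scaled bases 6 were higher and 4 lower.

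Of 32 proximal tubule genes, 10 were fitted, and 3 were higher and 1 lower in KO (40% called against 41.2% of all genes, median 0.08 against 0.12), again near the background. SLC16A9, a carnitine transporter, had 82, 86 and 121 bases in WT, 478 to 819 in KO and 0 to 246 in rescue, and SLC13A1, a sulfate transporter, 173 to 218, 656 to 968 and 728 to 1148. GLYAT, a glycine acyltransferase, was lower in KO (356 to 650 against 832 to 877) and back in rescue (674 to 1078). LRP2, the endocytic receptor megalin, had 589 to 787 bases in WT, 899 to 1385 in KO and 494 to 801 in rescue (0.51 ± 0.14, adjusted p = 0.00777, not passed without WT replicate 3).

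Of 36 WNT pathway genes, 20 were fitted, and 4 were higher and 2 lower in KO (30% called against 41.2% of all genes, median 0.07 against 0.12), with 7 lower in scaled bases. WNT7A, a WNT ligand, had 1594, 1795 and 1832 bases in WT, 0 to 626 in KO and 989 to 2110 in rescue (-2.42 ± 0.32 and 2.09 ± 0.26, adjusted p = 5.7e-06 and 4.11e-06). DKK2, an extracellular WNT antagonist, had 163 to 536 in WT, 1357 to 1777 in KO and 1037 to 1724 in rescue. RSPO3, a secreted WNT agonist, had 157 to 183, 319 to 588 and 90 to 351. WNT3 had 694 to 837 in WT and 1028 to 1478 in KO. In rescue against KO, 3 of the 20 were higher and 2 lower (25% called against 36.6% of all genes). The kinase GSK3B had 598 to 993 bases in KO and 1015 to 1320 in rescue, and the R-spondin receptor LGR4 1383 to 1599 and 1082 to 1446. The calls of RSPO3 and LGR4 were lost with stricter peaks.

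Of 28 writers, erasers and readers of H3K36 methylation, 13 were fitted, with 4 higher and 0 lower in KO (30.8% called against 41.2% of all genes, where 29.6% were higher). SETD2 itself had 772 to 1000 bases in WT, 990 to 1448 in KO and 1062 to 1518 in rescue. Its change in KO (0.41 ± 0.12, adjusted p = 0.00888) came with overlapping libraries and did not pass without WT replicate 3 or with KO1 alone. KDM2B, an H3K36 demethylase, had 150 to 226 in WT, 363 to 538 in KO and 381 to 686 in rescue. SMYD2 had 1199 to 1310 in WT and 1479 to 1728 in KO, and the methyltransferase gene ASH1L 677 to 888 and 828 to 1055. With equal list lengths 9 genes were fitted and none passed in KO. In rescue against KO, NSD2 (81 to 268 bases in KO, 388 to 931 in rescue) and NSD1 (574 to 1193 and 1173 to 1555), which dimethylate H3K36, were higher and none was lower. That was 15.4% called against 36.6% of all genes. Against KO2 alone NSD1 did not pass (adjusted p = 0.0602).

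The 200-base windows of late regions were searched for AP-1 (TGANTCA), TEAD (GGAATG), RUNX (TGTGGTT), ETS (CCGGAAG), FOX (TGTTTAC), C/EBP (TTGCNNAA), POU octamer (ATGCAAAT), PRRX-type homeobox (TAATTA), SOX (ACAATG), ZEB-type E-box (CACCTG), HNF4 (CAAAGTCCA), GRHL (AACCGGTT), CREB (TGACGTCA), and by name CTCF, HNF1, NF-kB, NFI and IRF. The HNF1 motif can hold a homeobox match, and octamer and C/EBP matches can overlap. AP-1 matches were the most frequent, in 29.2% of late, 28.4% of early and 27.4% of all consensus regions. CTCF, the insulator protein, was matched in 1.97% of late regions, against 1.31% of early and 1.75% of all regions. Of late regions held by all 15 libraries, 3.58% had a CTCF match, and early or all regions held that widely were not compared.

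The ZEB-type E-box, a sequence bound by the ZEB and SNAI repressors of epithelial genes, was in 17.1% of late and 16.2% of all regions. Of the late regions held by a library, 17.5% to 17.8% had it in WT, 14.7% to 15.6% in KO and 17.1% to 17.7% in rescue. KO lay below both other groups without overlap. Early regions showed the same order, with 17.1% to 17.2%, 14.1% to 14.7% and 16.6% to 16.9%. The E-box was in 9.94% of the late regions gained in KO and 27.6% of those lost, and in 30.5% of those gained and 6.75% of those lost in rescue.

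AP-1 matches rose from 28.5% to 28.9% of held late regions in WT to 30.2% to 31.8% in KO and were at 31.3% to 32.5% in rescue. They were in 34.9% of late regions gained and 17.8% of those lost in KO, and in 34.2% and 19.1% of the early ones. Late regions gained in KO were wider than those lost (median 298 against 195 bp) and ranked higher by fold enrichment (median percentile 47.6 against 33.8). The part of these differences in the motif contrasts between gained and lost regions was not tested. FOX matches were in 3.19% to 3.33% of held late regions in WT, 3.79% to 4.19% in KO and 3.71% to 3.78% in rescue. Of regions gained in KO, 7.88% of the late and 6.18% of the early ones had a FOX match, against 3.53% of all regions. C/EBP matches were in 10.7% to 10.8% of held late regions in WT, 10.8% to 11.6% in KO and 9.61% to 9.89% in rescue. Of regions lost in rescue, 24.2% of the late and 25.7% of the early ones had a C/EBP match, against 10.4% of all regions. TEAD matches were in 24.6% of late regions lost in KO and 14.6% of those gained, and in 22.2% and 14.2% of the early ones, against 15.4% of all. CTCF was in 0.106% of late regions gained in KO. Of early regions gained in KO, 0.409% had a CTCF match and 8.84% an E-box, and of those lost 29.4% had an E-box. POU octamer matches were in 1.16% to 1.19% of held late regions in WT, 1.38% to 1.47% in KO and 1.09% to 1.2% in rescue. Early regions had 1.31% to 1.36%, 1.53% to 1.67% and 1.24% to 1.34%. PRRX-type matches were in 4.22% to 4.29%, 3.95% to 4.28% and 3.93% to 4.13% of held late regions. SOX matches were in 11%, 11.1% to 11.5% and 11.2% to 11.5%. NF-kB matches were in 7.61% to 7.73%, 6.84% to 7.42% and 6.42% to 6.8%. A match is a run of letters and not a bound site.

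**Figure D5:**
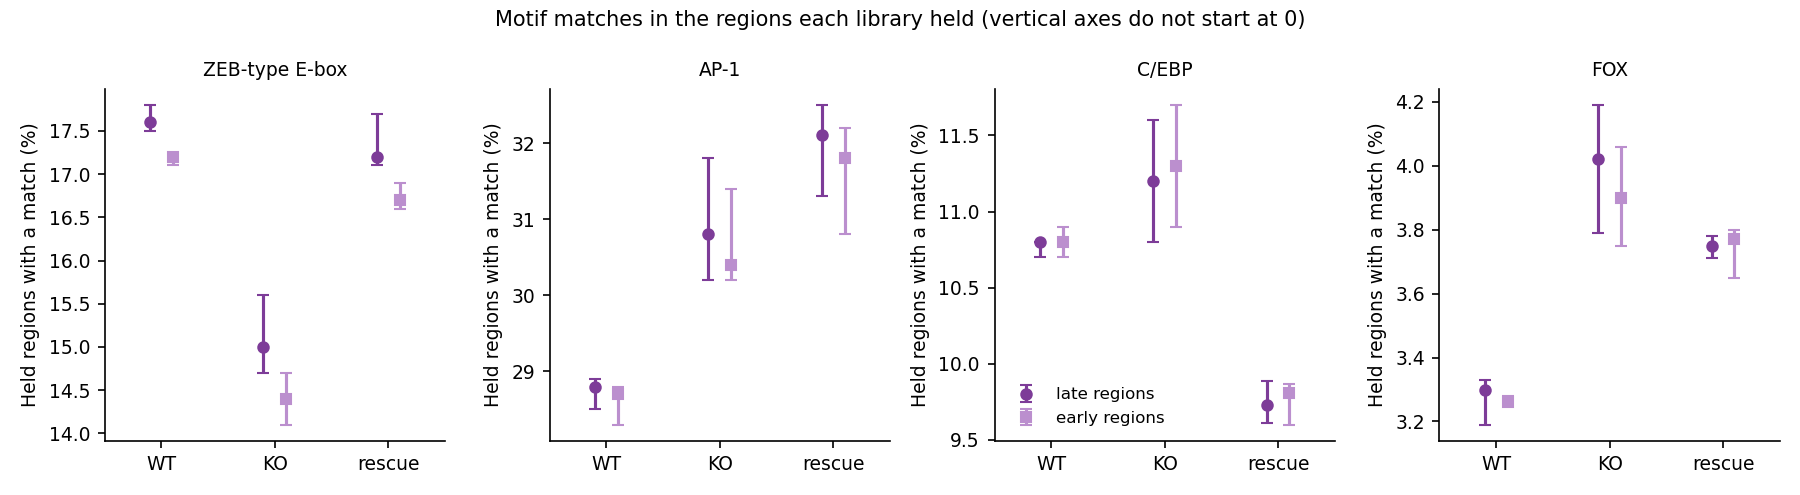
The percent of held late (circles) and early (squares) regions whose 200-base window had a match is plotted for 4 motifs, with points at the median over 3 WT, 6 KO and 6 rescue libraries and bars from the lowest to the highest library; the vertical axes do not start at 0. For the ZEB-type E-box the KO range (14.7% to 15.6% of late regions) lay below the others, for AP-1 the WT range did, and for C/EBP the rescue range did.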

How the data were processed

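ATAC-seq was measured in 15 libraries of 5 lines. Reads were aligned by the authors to hg38 with BWA (0.7.17 in the submitters' processing notes; the study's methods name another release), and peaks were called per library with MACS2 2.2.7.1, without pooling. Control, duplicate removal and excluded regions are not given in the sources used here. The lists deposited by the authors hold intervals, a whole-number score derived from −log10 q (10-fold), a fold enrichment ratio over the library's own background, and −log10 p-values and q-values (lowest −log10 q 1.3). Fold enrichment was used only to rank peaks within a library and −log10 p and q only to filter them. No counts were used.

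Genes were taken from GENCODE v44, whose build is hg38 too, and no peak lay past a chromosome end. GEO's design text speaks of duplicates, while the labels give 3 libraries per line. Members and gene lists were chosen with earlier results of these data known. Genes named are the 6 (bases) or 4 (ratio) with the largest fold per direction among those with adjusted p under 0.05 and groups that do not overlap, and up to 4 passing members per list; genes with most called regions were named after their counts were seen, as were the chromosome classes. Regions named are the highest per class by median within-library percentile. Some of them, and some markers, are not reported here. Group means were compared by exact permutation over libraries (two-sided by doubling), regions by an all-or-none rule and Fisher's exact test, and genes by limma 3.58.1 with a trend (R 4.3.3, pseudocount 100 bases, 5 group means). Python 3.11.15, numpy 2.4.6, pandas 2.3.3 and scipy 1.17.1 were used. The calling rule and the fits were tested on simulated data. The precision of a share is limited by the number of libraries. Equal replicate numbers did not pair the libraries: the deviations of same-numbered libraries correlated at -0.051 to 0.0251 over late regions. Alternatives were stricter peaks (−log10 q of at least 5), equal lists (150000 peaks), other overlaps, single clones, left-out libraries, a replicate block, a pseudocount of 500 and scaled bases. Chromosomes X and Y were not used.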

Additional observations from a re-analysis of the deposited data

Results flagged for a closer look

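In the pooled groups of 6 libraries, 1 library stood apart from the rest by Dixon's gap test (its gap to the nearest library, divided by the range, was above the 95% critical value) in 13 of 140 groups tested, where chance flags about 1 in 20. None concerned the late share. KO2 replicate 3 had 246615 peaks, with the next KO library at 213923, and it also had the most late bases in LRP2 (1385, next 1037), NELL2 (1611, next 1221) and ERICH1 (165, with 0 in the others). Rescue2 replicate 3 had the lowest place of late regions among the consensus regions held (14.9%, next 15.1%). KO2 replicate 2 was low in FMN2 (3264 bases, next 3640) and TMEM74 (732, next 1026). ATP9B had 98 bases in KO1 replicate 3 and FBRSL1 94 in KO2 replicate 1, each with 0 in the other KO libraries. WNT3 was high in KO1 replicate 2 (1478, next 1118). Among rescue libraries, EIPR1 was high in Rescue2 replicate 1 (2992, next 2381), SLC13A1 was high in Rescue1 replicate 3 (1148, next 875.0) and FSHR was at 0 in Rescue1 replicate 1 (next 110.0).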

How the results depend on the processing

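The differences in late share kept their direction under every alternative run. With KO1 or KO2 alone they were 1.07 and 1.06 points over all genes and 1.36 and 1.37 points in genes with an accessible promoter (exact permutation p = 0.1, the smallest possible), and with a replicate block 1.06 and 1.36 points (exact permutation p = 0.0741, the smallest that 27 splits allow), so none of these could pass by design. Without 1 WT library they were 0.995 to 1.11 and 1.27 to 1.42 points (exact permutation p = 0.0714, the smallest possible). Counts of late regions changed where fewer libraries had to meet the rule. Gained in KO were 3454 with KO2 alone (8.02%, all regions 8.29%) and 5592 by a majority rule (13%, all 12.9%), and lost were 2065 with KO1 alone (4.8%, all 4.8%) and 4154 by majority (9.65%, all 9.66%). Gained in rescue were 827 with Rescue1 alone (1.92%, all 1.8%), 1155 with Rescue2 alone (2.68%, all 2.44%) and 3499 by majority (8.13%, all 7.56%), and lost were 798 against KO2 alone (1.85%, all 2.27%), 944 with Rescue1 alone (2.19%, all 2.71%) and 2691 by majority (6.25%, all 6.75%). For late bases per gene, 962 were higher in KO with equal lists; lower in KO were 992 with genes of 1 or more regions, 1070 with scaled bases, 349 with KO2 alone and 375 to 629 without 1 library (375 without WT replicate 1). In rescue, lower were 924 with genes of 1 or more regions, 881 with scaled bases and 309 with Rescue2 alone, and higher were 600 against KO2 alone and 718 with Rescue1 alone. For the ratio, genes with 1 or more regions gave 1579 higher and 1221 lower in KO and 1040 and 1163 in rescue, and KO2 alone gave 327 and 352 in rescue. The paired fit moved no count of genes by over 1.5 times (1400 higher and 533 lower in KO). COL5A1, called higher in KO, had no change to measure with KO1 alone, where all libraries compared were at 0 bases. LLGL2 lost its lower call in KO under the replicate block, with its log2 change still at -0.44. In all, 36 values for named genes lost significance under some alternative. The lists give no depth, so regions near the threshold cannot be told from absent ones, and the cause of the changes with single clones was not tested.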
